A study of Rattus norvegicus with 44 samples.

Results

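Transcripts of 43 proteasome genes were followed in rat choroid plexus and blood after heat and after amphetamine. The members were all genes whose platform symbol begins with Psma, Psmb, Psmc, Psmd, Psme, Psmf or Psmg. They were read by 51 of the 14055 probes and make up 43 of the 10412 named genes. For the 7 members with more than 1 probe, the one with the highest mean log2 signal over the 44 arrays was used. The naming rule also takes in Psmc3ip, which encodes a partner of meiotic recombination enzymes and not a subunit, so 42 members are subunits, activators or assembly factors. Psmf1, Psmb11, Psma8, Psmd14, Psmg3 and Psmg4 were not analysed here.

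The animals were male Sprague-Dawley rats of the NCTR strain, 3 months old, in 11 groups of 4 arrays. Controls were given saline. EIH stands for environmentally-induced hyperthermia, in which warm surroundings raise body temperature, and AMPH for amphetamine at doses toxic to neurons. Tissue was taken 3 h or 1 day afterwards. Choroid plexus, the epithelium that secretes cerebrospinal fluid, was measured on 20 arrays, each a pool of 3 rats: saline, EIH and AMPH at 3 h, and EIH and AMPH at 1 day. Trunk blood was measured on 24 arrays, each of 1 rat: saline, EIH and AMPH at both times. No saline pools of choroid plexus at 1 day were analysed here, and the titles of the 4 EIH pools at that time say control where the source and treatment labels say EIH. The labels' rat numbers place 17 blood rats in a choroid plexus pool as well, and 5 numbers recur over 7 pools. Some numbers stand under more than 1 exposure or time, a conflict if each rat had a single exposure and time. In choroid plexus, shared numbers link saline at 3 h with AMPH at 1 day, and AMPH at 3 h with EIH at 1 day. They also link EIH at 3 h with EIH at 1 day. Another stands in choroid plexus saline at 3 h and blood saline at 1 day. Which labels are right is unknown here. Some EIH pools at 1 day also share numbers with each other, so they may not be independent. Doses and body temperatures were not used here.

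Values are log2 of the deposited signal intensity, and each difference is a limma estimate ± its standard error, between groups of 4 arrays unless stated. A gene was called where the Benjamini-Hochberg adjusted p within a comparison was under 0.05. The median intensity of an array lay between 139 and 146 at 3 h (24 arrays) and between 165 and 171 at 1 day (20 arrays), and the 2 times were treated as separately scaled sets. The member values ran from 5.22 to 14.77, with 2 of 1892 blank, and their number of arrays, not a depth, limits the precision. The tissue tag of the blood arrays also names the striatum, a brain region, where their titles and source names say blood. Marker genes in saline separated the tissues: the 10 measured epithelial markers summed to 296864 to 309250 in choroid plexus and 8604 to 12392 in blood, and the 7 erythroid markers to 1548 to 1879 and 188587 to 195965. One choroid plexus pool, AMPH at 1 day replicate 2, stood apart, with epithelial markers at 129149, and blood saline at 1 day replicate 4 stood apart among the blood arrays, with log2 intensities of 8.69 for Psmb7 (9.41 to 10.31 on the other arrays of its group) and 7.90 for Psmd5 (8.98 to 9.52).

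The proteasome is the main protease of the cytosol and nucleus. Its core particle is a barrel of alpha and beta rings, in which the beta subunits Psmb5, Psmb6 and Psmb7 cut the substrate, and its regulatory particle, with a base of ATPases (Psmc) and non-ATPase subunits and a lid (Psmd), binds ubiquitin chains, unfolds the protein and feeds it in. In leukocytes, and elsewhere after interferon, Psmb8, Psmb9 and Psmb10 take the places of Psmb5, Psmb6 and Psmb7 to form the immunoproteasome, and the activator PA28, built of Psme1 and Psme2, caps the core. Both serve the supply of peptides to MHC class I molecules. Heat unfolds proteins, and those that cannot be refolded are cleared by the proteasome.

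The promoters of the inducible genes are shown because the comparisons below turn on these genes. RefSeq promoters of GRCr8, 250 bases before to 50 after the start site used by the promoter table, were found for 40 of the 43 members. Psma7, Psmd6 and Psmd12 had none and were not searched. That site was the outer end of the annotated gene for 24 of the 40 and lay inside the gene for 16. They were searched on both strands for GAAA, any 2 bases and GAAA again, the core of the interferon-stimulated response element through which interferon regulatory factors act. It was found in 6 of the 40 (15.0%), namely Psma4, Psmb3, Psmb8, Psmb10, Psmd7 and Psme2, against 3.92% of 33469 promoters and 3.06% of the 9024 promoters of genes on the array. The motif was chosen with earlier results known, and a match is a description and not a site shown to be used. Capitals mark the matches, and each sequence runs 5′ to 3′ along the gene.
Psmb8, chr20:4656982-4657281, minus strand: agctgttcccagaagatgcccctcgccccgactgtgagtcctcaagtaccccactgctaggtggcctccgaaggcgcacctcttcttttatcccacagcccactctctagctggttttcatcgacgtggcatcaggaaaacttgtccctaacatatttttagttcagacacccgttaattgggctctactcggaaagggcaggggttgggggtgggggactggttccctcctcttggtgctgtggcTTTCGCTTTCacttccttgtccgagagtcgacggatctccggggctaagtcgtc
Psmb10, chr19:50743243-50743542, minus strand: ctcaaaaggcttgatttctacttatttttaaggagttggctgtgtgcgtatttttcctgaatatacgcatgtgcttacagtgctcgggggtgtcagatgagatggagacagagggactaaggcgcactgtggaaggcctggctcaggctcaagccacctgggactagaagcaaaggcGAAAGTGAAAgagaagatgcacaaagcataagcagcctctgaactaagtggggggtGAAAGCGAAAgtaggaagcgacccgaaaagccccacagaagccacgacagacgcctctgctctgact
Psme2, chr15:33052702-33053001, minus strand: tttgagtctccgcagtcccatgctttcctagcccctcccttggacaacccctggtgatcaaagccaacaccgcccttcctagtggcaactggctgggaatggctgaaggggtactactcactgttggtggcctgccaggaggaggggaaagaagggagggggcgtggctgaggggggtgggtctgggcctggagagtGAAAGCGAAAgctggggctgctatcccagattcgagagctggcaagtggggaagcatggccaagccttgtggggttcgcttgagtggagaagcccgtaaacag
Counted from the start site of the window, Psmb8 held 1 match, starting at -4, Psmb10 held 2, at -73 and -17, and Psme2 held 1, at -53. The site used lay 18 bases inside the annotated gene for Psmb8, 304 for Psme2, 48 for Psmb9 and 9 for Psme1, so the Psmb8 and Psme2 matches lie within the annotated genes. The remaining genes of the immunoproteasome and of PA28, and the constitutive Psmb5 for comparison, had no match in the window. For Psme1 the window ends on the opening letters of the pattern, so a match across its edge could not be read.
Psmb9, chr20:4668750-4669049, plus strand: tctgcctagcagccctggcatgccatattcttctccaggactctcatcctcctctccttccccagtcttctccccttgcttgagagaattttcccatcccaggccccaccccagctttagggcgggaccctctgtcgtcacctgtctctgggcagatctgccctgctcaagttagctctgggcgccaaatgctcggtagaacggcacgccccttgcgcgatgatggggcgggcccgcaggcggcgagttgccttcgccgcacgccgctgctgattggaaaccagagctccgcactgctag
Psme1, chr15:33038721-33039020, plus strand: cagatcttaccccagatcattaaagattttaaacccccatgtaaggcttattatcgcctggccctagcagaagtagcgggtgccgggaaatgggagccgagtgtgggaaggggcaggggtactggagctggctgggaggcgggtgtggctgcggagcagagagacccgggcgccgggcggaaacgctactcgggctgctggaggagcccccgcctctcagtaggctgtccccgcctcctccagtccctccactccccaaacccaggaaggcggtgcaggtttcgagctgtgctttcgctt
Psmb5, chr15:32047330-32047629, minus strand: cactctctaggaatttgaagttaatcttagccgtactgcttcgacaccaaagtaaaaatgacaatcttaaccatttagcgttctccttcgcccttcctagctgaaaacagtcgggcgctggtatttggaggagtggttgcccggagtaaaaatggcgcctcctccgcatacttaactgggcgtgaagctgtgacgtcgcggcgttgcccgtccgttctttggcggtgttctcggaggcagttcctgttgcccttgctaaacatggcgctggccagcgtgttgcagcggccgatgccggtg
Psmb8 and Psmb9 lie on chromosome 20 in the MHC region, with the peptide transporter gene Tap1 as the single coding gene between them. Psme1 and Psme2 lie on chromosome 15 with Emc9 as the single coding gene between them. The remaining matches were in the core subunit genes Psma4 (-234) and Psmb3 (-143) and in the lid gene Psmd7 (-66), shown as 60 bases around each match.
Psma4, chr8:64236270-64236329, plus strand: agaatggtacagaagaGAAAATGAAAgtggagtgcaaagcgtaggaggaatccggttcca
Psmb3, chr10:83193619-83193678, plus strand: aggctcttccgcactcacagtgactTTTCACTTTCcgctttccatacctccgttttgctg
Psmd7, chr19:52411348-52411407, minus strand: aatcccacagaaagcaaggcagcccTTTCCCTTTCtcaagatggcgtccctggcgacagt
The heat shock element, read as GAA, TTC and GAA with any 2 bases between them, was in 0 of the 40 member promoters. It was in 0.798% of all promoters and 0.521% of those of genes on the array, too few for 0 of 40 to set the members apart. TTC, any 3 bases and GAA, the palindrome bound by STAT factors, was in 4 of the 40 and in 8.87% of all promoters. CCAAT was in 20 of the 40 and in 37.5% of all. Among promoters of genes on the array the shares were 7.1% and 38.1%.

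In rats given saline, most constitutive proteasome genes were higher in choroid plexus and the immunoproteasome genes were higher in blood. Under saline at 3 h, 29 of the 43 members were called higher in choroid plexus, where 31.9% of all tested genes were, and 6 were called lower, where 24.3% were. The median member difference was 0.99, against 0.15 over all genes. The higher members included 6 of 7 alpha ring genes, all 4 structural beta ring genes, 2 of 3 constitutive catalytic genes and all 6 ATPase genes. The 3 inducible catalytic genes were all lower. In whole tissue, fewer cells of a type and less RNA per cell cannot be told apart.

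**Figure D1:**
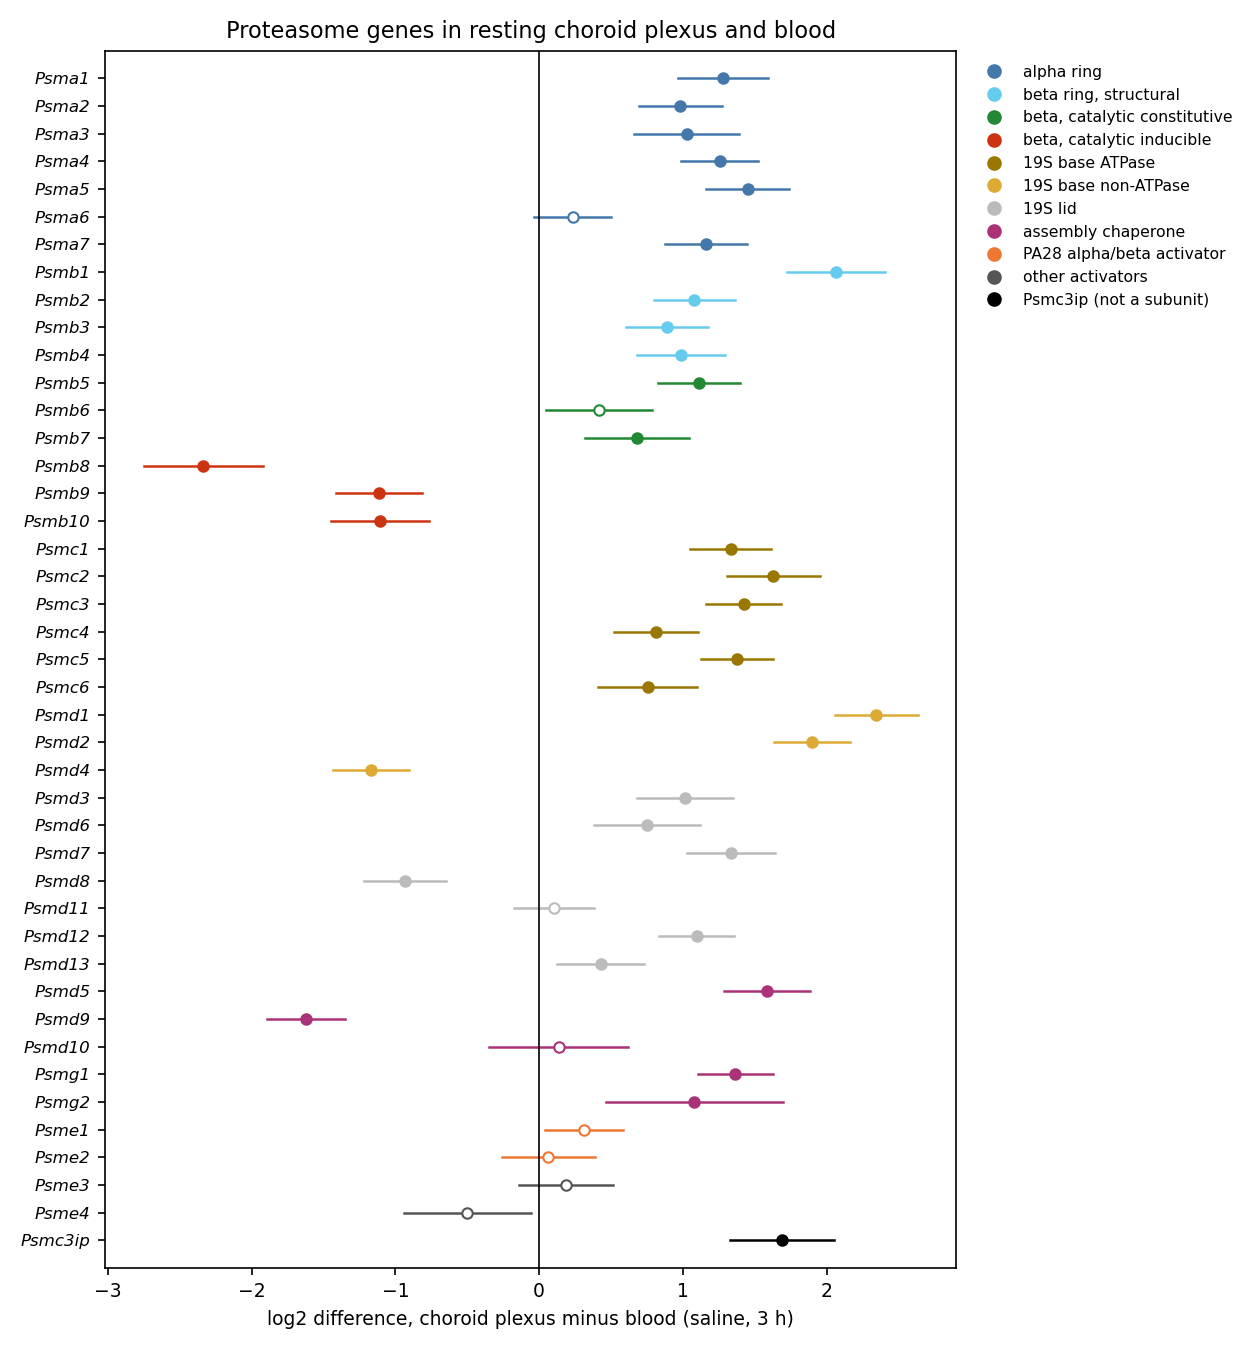
Log2 difference between choroid plexus and blood under saline at 3 h for the 43 members (x axis, choroid plexus minus blood, 4 arrays each), with 95% intervals from limma as bars and colour by role (19S is the regulatory particle). Filled points were called at an adjusted p under 0.05. Psmb8, Psmb9 and Psmb10 lie left of 0 at -2.34, -1.11 and -1.11, while the 6 ATPase genes lie between 0.75 and 1.63.

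Psmb8, the inducible counterpart of Psmb5, read 10.03, 9.52, 9.63 and 9.40 in the choroid plexus pools and 12.24, 11.82, 11.96 and 11.89 in blood. Every choroid plexus value lay below every blood value, and the difference was -2.34 ± 0.18 (limma, adjusted p = 1.37e-05), or 0.198 times the blood signal (95% interval 0.149 to 0.264). Psmb9 read 11.49, 11.18, 11.21 and 11.18 in choroid plexus and 12.49, 12.35, 12.39 and 12.28 in blood, a difference of -1.11 ± 0.13 (limma, adjusted p = 0.000142). Psmb10 read 11.84, 11.65, 11.60 and 11.43 against 12.95, 12.69, 12.75 and 12.55, also a difference of -1.11 ± 0.15 (limma, adjusted p = 0.000309). The groups of arrays were fully separated for each of the inducible genes, and the share of all genes so separated was not counted. Their constitutive counterparts went the other way: Psmb5 gave 1.11 ± 0.12 (limma, adjusted p = 0.000104) and Psmb7 gave 0.68 ± 0.16 (adjusted p = 0.00615). Psmb6, at 0.42 ± 0.16, was not called (adjusted p = 0.054) but was in 5 of 16 alternatives.

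The PA28 genes did not follow the inducible catalytic genes in this comparison. Psme1 differed by 0.31 ± 0.12 (limma, adjusted p = 0.0502) and was called in 6 of 16 alternatives, and Psme2 differed by 0.06 ± 0.14 (95% interval -0.26 to 0.39). The nuclear activators Psme3 and Psme4 gave 0.18 ± 0.14 and -0.50 ± 0.19, neither called, although Psme4 was called in 7 of 16 alternatives, the random replicate block for shared rats among them, and a dimmer Psme4 probe gave -1.14 ± 0.19 (adjusted p = 0.00117 when every probe was fitted).

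Among the other members the difference was largest for Psmd1, which with Psmd2 forms the scaffold of the base. Psmd1 read 14.16 to 14.42 in choroid plexus and 11.78 to 12.01 in blood, higher by 2.34 ± 0.12 (adjusted p = 1.9e-06), and its dimmer probe gave 1.24 ± 0.15. Psmd2 was higher by 1.90 ± 0.11 and the beta ring gene Psmb1 by 2.07 ± 0.15. The ATPases ran from 0.75 ± 0.15 for Psmc6 to 1.63 ± 0.14 for Psmc2, and the alpha ring from 0.23 ± 0.11 for Psma6, not called, to 1.45 ± 0.12 for Psma5. The dimmer Psma6 probe gave -0.79 ± 0.13, so the direction of Psma6 rests on the probe. Not every subunit followed: the ubiquitin receptor Psmd4 (-1.17 ± 0.11) and the lid gene Psmd8 (-0.93 ± 0.12) were higher in blood. The assembly chaperones were also divided, with Psmd5 at 1.59 ± 0.13 and Psmd9 at -1.62 ± 0.12. Psmc3ip was higher in choroid plexus by 1.69 ± 0.16. Between 34 and 39 members were called under every alternative that was run.

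In choroid plexus at 3 h, no member was called after EIH or AMPH. After EIH, 0 of 43 were called, against 0.331% of all genes higher and 0.00975% lower, with 1 member higher and 4 lower at an unadjusted p under 0.05 (7.78% and 5.16% of all genes) and a median of -0.12 against 0.01 over all genes. After AMPH, 0 of 43 were called, against 0.136% higher and 0.0195% lower, with 0 higher and 3 lower at an unadjusted p under 0.05 (8.89% and 6.08% of all genes) and a median of -0.06 against 0.03. With array weights, 5 members were called lower after EIH (Psma7, Psmb9, Psmc3ip, Psmd2 and Psme2) and 3 after AMPH (Psmb6, Psmb9 and Psmc3ip), but so were 5.56% and 6.67% of all genes, with 0 members higher against 5.25% and 6.52%. Without AMPH replicate 4, Psmc3ip alone was called lower after AMPH.

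**Figure D2:**
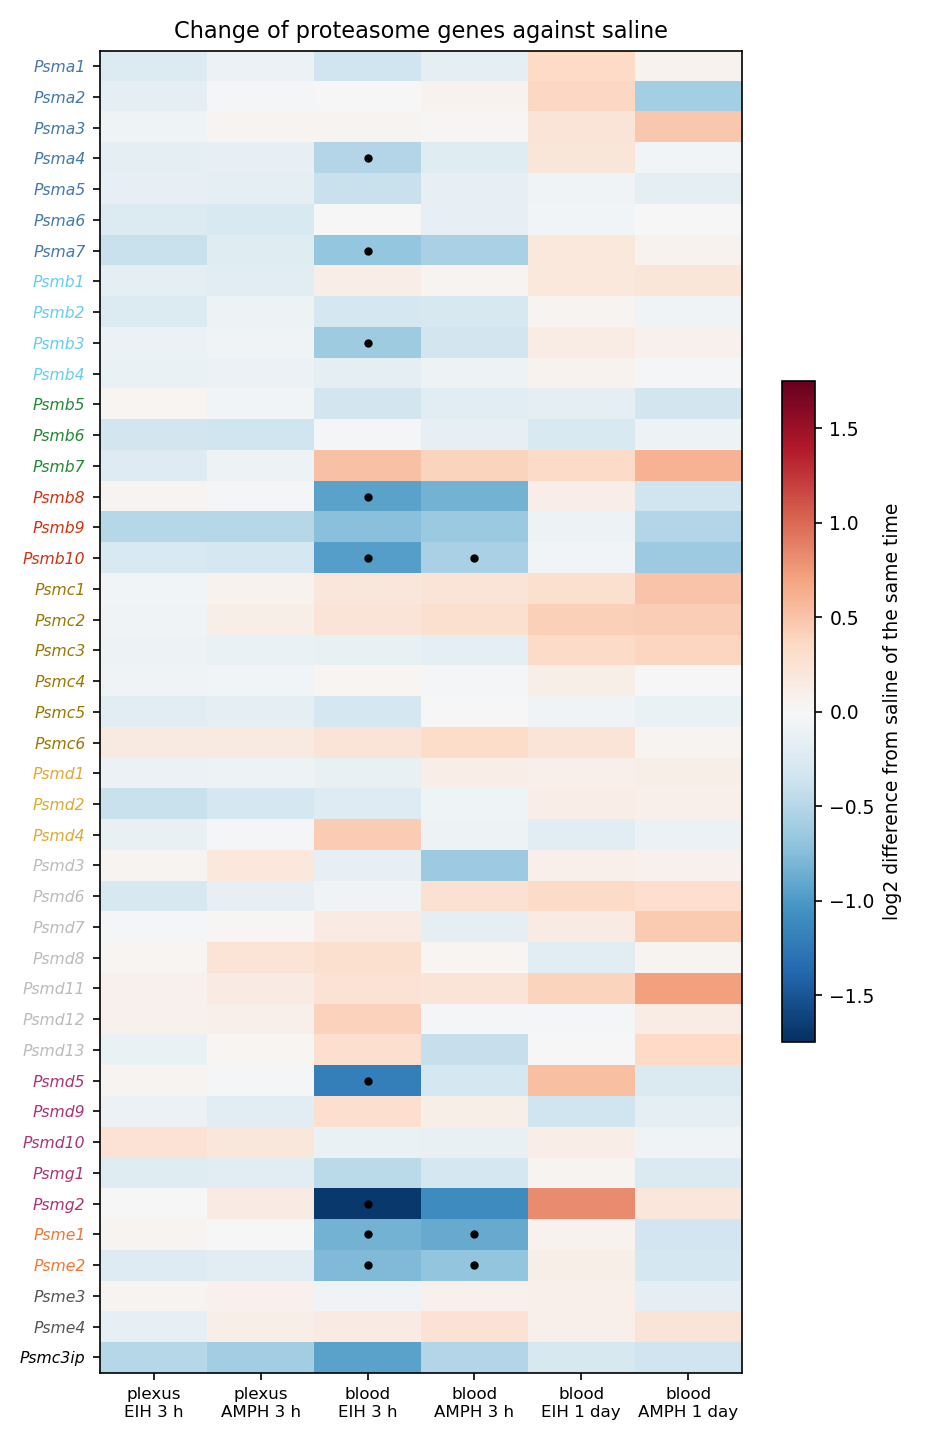
Log2 difference from saline of the same time (colour) for each member (rows, coloured by role as in the plot of tissues) in the 6 comparisons with a matched saline group. Dots mark calls at an adjusted p under 0.05 from limma. Dots stand in blood at 3 h alone, 9 after EIH and 3 after AMPH.

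Psmb9 was the inducible gene with the smallest p in choroid plexus. Its pools read 11.49, 11.18, 11.21 and 11.18 under saline, 10.91, 10.68, 10.85 and 10.62 after EIH and 10.82, 10.44, 10.52 and 11.27 after AMPH. All EIH pools lay below all saline pools, and 3 of the 4 AMPH pools did, with differences of -0.50 ± 0.22 after each exposure (adjusted p = 0.355 and 0.3). The constitutive Psmb6 and Psmb7 were fully below saline after both exposures. Psmb6 gave -0.32 after EIH and -0.35 after AMPH, and Psmb7 gave -0.22 and -0.09, none called. Other members were separated as well, and the share of all genes so separated was not counted. Psmb8 gave 0.05 ± 0.21 after EIH (95% interval -0.38 to 0.49) and -0.03 ± 0.21 after AMPH (-0.47 to 0.40). Psme1 gave 0.04 ± 0.12 after EIH (-0.22 to 0.31) and -0.00 ± 0.12 after AMPH (-0.26 to 0.26), and Psmb5 gave 0.03 ± 0.14 and -0.04 ± 0.14. The 2 exposures share the saline pools, and between AMPH and EIH at 3 h 0 members were called, against 0.00973% of all genes higher and 0.00% lower (0 members at an unadjusted p under 0.05, against 1.54% and 1.29%).

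At 1 day the choroid plexus pools could be set only against saline at 3 h, so time, scaling set and exposure cannot be told apart. Some EIH pools at 1 day share rat numbers with each other, and the tests below treat all pools as independent. Called members numbered 0 after EIH, against 0.00% of all genes, and 0 after AMPH, against 0.0294%. At an unadjusted p under 0.05, 2 members were lower for EIH and 3 for AMPH (0.916% and 3.51% of all genes), and 0 were higher (11.4% and 13.4%). The median over all genes shifted by 0.17 and 0.11, and the member medians were -0.06 and -0.12. AMPH against EIH at 1 day gave 0 calls of members, with 0.00% of all genes called and 0 members at an unadjusted p under 0.05 (1.99% higher and 3.46% lower among all genes). The pool that stood apart gave the highest inducible values of its group: Psmb8 read 9.81, 10.43, 9.53 and 9.50, Psmb9 read 11.31, 11.81, 10.94 and 10.48, and Psmb10 read 12.02, 12.45, 11.35 and 11.07. On that pool the erythroid markers summed to 14106 against 1428 to 1930 on the others, the monocyte markers to 37299 against 7411 to 11743 and the neutrophil markers to 5484 against 491 to 645. Their part in the values was not tested. Without that pool 0 members were called after AMPH as well.

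In blood at 3 h after EIH, most immunoproteasome genes and both PA28 genes were lower than under saline. Of the 43 members 9 were called lower, where 7.00% of all genes were, and 0 were called higher, where 5.63% were (limma). The called genes were 2 of 3 inducible catalytic genes (Psmb8 and Psmb10), both PA28 genes, the alpha ring genes Psma4 and Psma7, the beta ring gene Psmb3, and the chaperone genes Psmd5 and Psmg2. None of the 6 ATPase, 3 base non-ATPase, 7 lid or 3 constitutive catalytic genes was called. At an unadjusted p under 0.05, 2 members were higher and 15 lower (12.6% and 13.0% of all genes). The median over members was -0.13, against 0.08 over all genes.

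**Figure D3:**
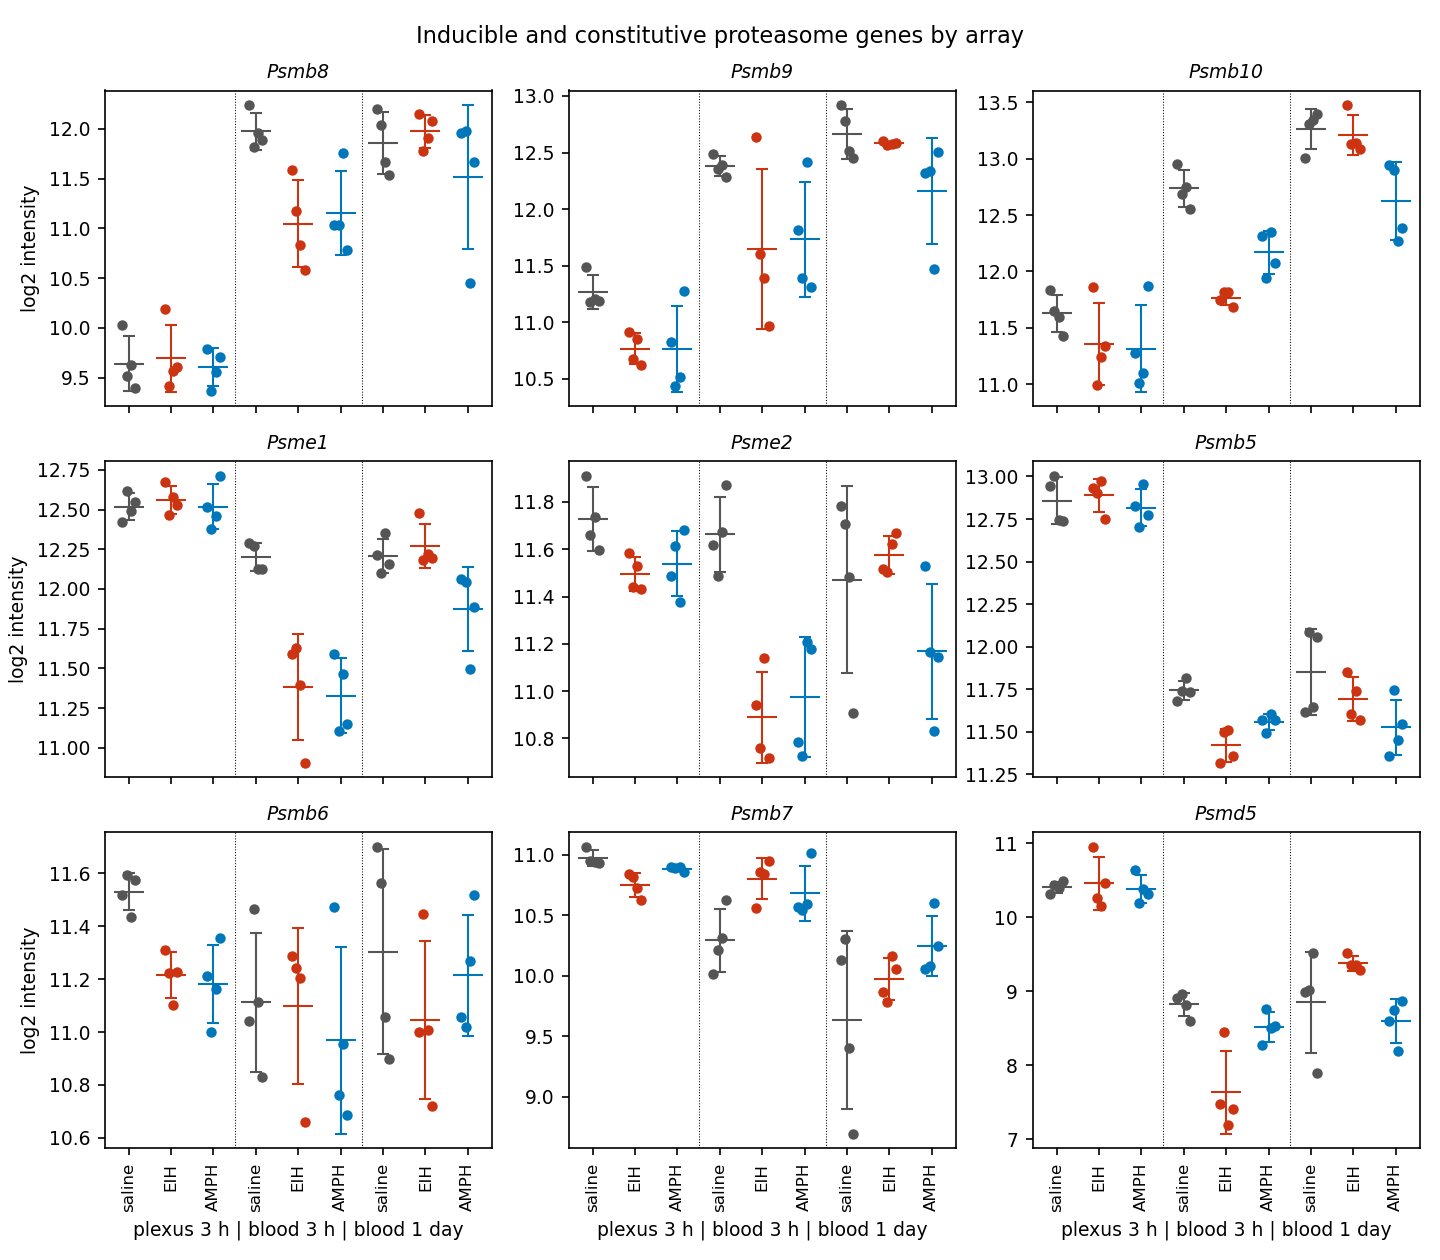
Log2 intensity (y axes, with a scale of their own in each panel) of 9 members on every array of choroid plexus at 3 h, blood at 3 h and blood at 1 day; points are arrays, horizontal lines group means and bars 1 SD (n = 4). In blood at 3 h the EIH arrays of Psmb10, Psme1 and Psme2 lie below every saline array, and at 1 day the EIH and saline arrays overlap.

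Psmb10, the inducible counterpart of Psmb7, read 12.95, 12.69, 12.75 and 12.55 under saline and 11.74, 11.82, 11.82 and 11.68 after EIH. The EIH values were tight and all below saline, with a fall of 0.97 on the log2 scale (SE 0.18, limma adjusted p = 0.00101), to 0.511 times saline. Psme1 read 12.29, 12.27, 12.13 and 12.13 under saline and 11.59, 11.63, 11.39 and 10.90 after EIH (-0.82 ± 0.18, adjusted p = 0.0043). Psme2 read 11.62, 11.49, 11.67 and 11.87 and then 10.94, 10.76, 11.14 and 10.72 (-0.77 ± 0.20, adjusted p = 0.0133). For each of these genes no EIH array reached the lowest saline array, and the calls held in all 17 alternatives. Genes not called, such as Psmb5, Psmc5, Psmd2 and Psmg1, were fully separated as well. The share of all genes so separated was not counted.

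Psmb8 and Psmb9, the neighbours in the MHC region, varied more between the EIH rats. Psmb8 read 12.24, 11.82, 11.96 and 11.89 under saline and 11.59, 11.18, 10.83 and 10.58 after EIH, a difference of -0.93 ± 0.30 (limma, adjusted p = 0.0461). The groups did not overlap, but the call was lost in 12 of 17 alternatives, the 3 other normalizations among them. Psmb9 read 12.49, 12.35, 12.39 and 12.28 under saline and 12.63, 11.60, 11.39 and 10.97 after EIH, a difference of -0.73 ± 0.30 that was not called (adjusted p = 0.121). EIH replicate 1 lay above every saline array, while the remaining 3 arrays lay below all of them.

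Of the chaperones, Psmd5, which helps assemble the ATPase base, read 8.90, 8.96, 8.82 and 8.60 under saline and 7.48, 8.45, 7.19 and 7.41 after EIH (-1.19 ± 0.29, limma adjusted p = 0.00821; held in all 17 alternatives). Psmg2, which helps build the alpha ring, was measured on 2 of the 4 EIH arrays, at 5.22 and 6.16, against 7.59, 7.97, 7.14 and 6.80 under saline. The difference of -1.69 ± 0.53 (adjusted p = 0.044, n = 2 and 4) was lost in 6 of 15 alternatives, and why the 2 values are blank is unknown here. Psma7 fell by 0.67 (SE 0.19, adjusted p = 0.0233), Psmb3 by 0.62 (SE 0.18, adjusted p = 0.026) and Psma4 by 0.51 (SE 0.16, adjusted p = 0.0404), the last lost in 10 of 17 alternatives. Psmc3ip, at -0.94 ± 0.33, was not called (adjusted p = 0.0656).

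The constitutive catalytic genes gave -0.32 ± 0.15 for Psmb5 (adjusted p = 0.164), -0.01 ± 0.23 for Psmb6 and 0.51 ± 0.27 for Psmb7 (adjusted p = 0.237). The highest estimates besides Psmb7 were those of Psmd4 (0.45 ± 0.18) and the lid gene Psmd12 (0.41 ± 0.18), neither called. Psme3 and Psme4 gave -0.07 ± 0.17 and 0.14 ± 0.18. The number of called members depended on single arrays: it was 4 without saline replicate 1, saline replicate 2 or EIH replicate 4, namely Psmb10, Psmd5, Psme1 and Psme2, and 5 without saline replicate 3. With array weights it was 14, of which 12 were lower and 2, Psmb7 and Psmd12, were higher, against 10.7% and 9.05% of all genes.

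Blood cell markers also differed after EIH, where 7.00% of all genes were called lower and 5.63% higher. All 8 measured T cell markers were called lower after EIH, and their summed signal was 26005 to 33908 under saline and 5526 to 15563 after EIH. Of 9 neutrophil markers 5 were called higher, with sums of 22008 to 35734 under saline and 46285 to 91005 after EIH. B cell markers were lower in 2 of 4 and NK and cytotoxic markers in 3 of 9, while 2 of 8 monocyte markers were higher and 0 of 7 erythroid markers were called. Across the 4 EIH arrays the T cell sum was 15563, 11332, 6892 and 5526, the order in which Psmb8 and Psmb9 descend. Psmb10, Psme1 and Psme2 did not follow this order. This order was noticed after the values were seen, and the part of the cell markers in the proteasome values was not tested.

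After AMPH at 3 h, 3 of the 43 members were called lower in blood, where 3.60% of all genes were, and 0 higher, where 5.08% were (limma). They were Psme1, Psme2 and Psmb10, which were also called after EIH against the same 4 saline arrays. Psme1 read 11.59, 11.11, 11.46 and 11.15 after AMPH, all below the saline arrays, with a difference of -0.88 ± 0.18 (adjusted p = 0.00553) that held in all 17 alternatives. Psme2 read 10.78, 10.72, 11.21 and 11.18 (-0.69 ± 0.20, adjusted p = 0.0348). Psmb10 read 12.31, 11.95, 12.35 and 12.07 (-0.57 ± 0.18, adjusted p = 0.0489), also below every saline array, and its call was lost in 12 of 17 alternatives. At an unadjusted p under 0.05, 1 member was higher and 7 lower (12.3% and 9.99% of all genes). The member median was -0.14, against 0.01 over all genes.

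Psmb8 read 11.04, 11.03, 11.76 and 10.79 after AMPH, below every saline array, but its difference of -0.82 ± 0.30 was not called (limma, adjusted p = 0.0992). Psmb9 read 11.82, 11.39, 12.41 and 11.31, so that replicate 3 lay at the saline level (-0.65 ± 0.30, adjusted p = 0.202). Psmg2 gave -1.10 ± 0.43 (adjusted p = 0.133), Psma7 -0.56 ± 0.19 (adjusted p = 0.0712), Psmb5 -0.18 ± 0.15, Psmb6 -0.14 ± 0.23 and Psmb7 0.39 ± 0.27. The highest estimate of an ATPase was 0.32 ± 0.15 for Psmc6, not called. Psme1 alone was called with the compared groups alone and without saline replicate 1, 3 or 4 or AMPH replicate 1 or 2, while 6 members were called lower and 0 higher with array weights, against 7.39% and 8.14% of all genes. Among T cell markers 7 of 8 were lower (3.60% of all genes), with sums of 6919 to 16389. Of 9 neutrophil markers 5 were higher (5.08% of all genes), with sums of 71402 to 116890. The T cell sums of the 4 arrays were 12168, 10303, 16389 and 6919, again with the Psmb8 and Psmb9 values in the same order. Those of Psmb10, Psme1 and Psme2 were not in that order. The part of the cell markers was not tested.

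The exposures were also compared directly in blood. At 3 h, 0 members were called between AMPH and EIH, against 0.0298% of all genes higher and 0.00993% lower, with 3 members higher and 2 lower at an unadjusted p under 0.05 (5.15% and 4.38% of all genes). Psmd5 had the smallest p, at 8.28 to 8.77 after AMPH and 7.19 to 8.45 after EIH, a difference of 0.89 ± 0.29 (limma, adjusted p = 0.283). Psme1 differed by -0.05 ± 0.18 (95% interval -0.43 to 0.32), Psmb8 by 0.11 ± 0.30 (-0.52 to 0.74) and Psmb10 by 0.40 ± 0.18 (0.04 to 0.77; adjusted p = 0.466).

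By 1 day no member was called in blood. After EIH 0 were called, against 0.0512% of all genes higher and 0.0307% lower, with 1 higher and 0 lower at an unadjusted p under 0.05 (5.57% and 4.74% of all genes). Psmb10 then read 13.48, 13.13, 13.14 and 13.09 against 13.01, 13.31, 13.34 and 13.40 under saline (-0.05 ± 0.17), and Psme1 gave 0.06 ± 0.18, Psme2 0.11 ± 0.20 and Psmb8 0.12 ± 0.30. T cell marker sums on the EIH arrays, 27390 to 35467, overlapped those of saline, 29411 to 38483. The NK and cytotoxic markers summed to 3985, 9356, 3556 and 3377 on the EIH arrays, against 9005 to 11833 under saline. For the B cell, neutrophil, monocyte and erythroid lists the EIH and saline ranges overlapped. The part of the cell markers was not tested. After AMPH 0 were called, against 1.64% higher and 0.439% lower, with 4 higher and 2 lower at an unadjusted p under 0.05 (10.5% and 7.32% of all genes).

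Psmb10 came closest to a call at 1 day. It read 12.94, 12.90, 12.27 and 12.38 after AMPH, all below the saline arrays, with a difference of -0.64 ± 0.18 (limma, adjusted p = 0.0583). It was called without the dimmest 25% of genes, with an intensity trend and robust prior, and without saline replicate 1, AMPH replicate 1 or AMPH replicate 2. Without saline replicate 4, which stood apart, no member was called (count 0). On the same arrays the T cell markers summed to 21201, 20533, 11429 and 14049, all below saline, and 0 of 8 were called. The NK and cytotoxic markers summed to 2561 to 8910, below the 9005 to 11833 of saline, with 0 of 9 called, and the monocyte markers to 48016 to 69793, above the 26066 to 37541 of saline, with 2 of 8 called higher. Their part in the values was not tested. Psmb8 read 11.96, 11.98, 10.46 and 11.67 and Psmb9 12.32, 12.34, 11.47 and 12.51, with replicate 3 lowest in each. Psmb7 gave 0.61 ± 0.26 (adjusted p = 0.226) and the lid gene Psmd11 0.72 ± 0.26 (adjusted p = 0.142). AMPH against EIH at 1 day gave 0 called members, with 0.00% of all genes called, and 0 members higher and 4 lower at an unadjusted p under 0.05 (5.74% and 6.06% of all genes).

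The difference between the responses was tested for tissue and for time. The EIH effect at 3 h was higher in choroid plexus than in blood for 2 members, where 3.85% of all genes were, and lower for 0, where 2.28% were. These were Psme1, by 0.87 ± 0.21 (limma, adjusted p = 0.0113), and Psmd5, by 1.24 ± 0.33 (adjusted p = 0.0198), and the Psme1 difference held in all 28 alternatives. The Psmd5 call was lost without pools that share a rat number and without choroid plexus EIH replicate 1, where Psme1 alone was called. Without blood saline at 1 day replicate 4, which enters only through the shared spread, 4 members were called (Psmb7, Psmd5, Psme1 and Psmg2). A random replicate block for rats shared between arrays gave 4 calls as well (Psmb8, Psmd5, Psme1 and Psmg2). Psmb8 gave 0.98 ± 0.37 (adjusted p = 0.109), Psmb10 0.70 ± 0.31 and Psmb9 0.23 ± 0.38, none called. For AMPH, Psme1 was the 1 member called, higher by 0.88 ± 0.21 (adjusted p = 0.0196, held in all 28 alternatives), where 1.51% of all genes were called higher and 1.63% lower.

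In blood the EIH effect at 3 h was lower than that at 1 day for 6 members, where 5.12% of all genes were lower, and higher for 0, where 3.93% were. Psmd5 differed by -1.71 ± 0.40 (limma, adjusted p = 0.0152) and held in all 24 alternatives. Psmb10 differed by -0.91 ± 0.25 (adjusted p = 0.0266), Psme1 by -0.89 ± 0.25 (adjusted p = 0.0335), Psma7 by -0.86 ± 0.27 (adjusted p = 0.048) and Psma4 by -0.72 ± 0.22 (adjusted p = 0.0496). Psmg2, with 2 EIH values at 3 h, differed by -2.52 ± 0.69 (adjusted p = 0.03). Psme2, at -0.88 ± 0.28, was not called (adjusted p = 0.0534) but was in 6 of 24 alternatives. The count rested on single arrays: it was 1 without saline at 3 h replicate 1 or EIH at 1 day replicate 1, 2 without saline at 3 h replicate 2 or EIH at 1 day replicate 3 or 4, and 3 without EIH at 3 h replicate 2 or 4 or saline at 1 day replicate 4. For AMPH 0 members differed between the times, against 0.358% of all genes higher and 0.0211% lower, with 0 higher and 4 lower at an unadjusted p under 0.05 (7.12% and 6.66% of all genes). Since the arrays of the 2 times were treated as separately scaled sets, each effect was taken within its own time.

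The balance of each inducible subunit with the constitutive subunit it replaces was followed on each array, relative to the mean of the saline arrays. In blood the balance of Psmb10 to Psmb7 moved to -1.26, -1.48, -1.47 and -1.71 after EIH at 3 h (-1.48 ± 0.18, SD, n = 4), while the saline arrays ran from -0.52 to 0.49. After AMPH at 3 h it was -0.96 ± 0.33 (SD, n = 4), and at 1 day -0.39 ± 0.30 after EIH and -1.25 ± 0.58 after AMPH, against -0.75 to 1.08 under saline. Without saline at 1 day replicate 4, which stood apart and read 1.08, the 1-day means were -0.03 after EIH and -0.89 after AMPH. At 3 h Psmb10 was lower after both agents, and the Psmb7 estimates, not called, were above 0. Psmb8 to Psmb5 was -0.61 ± 0.47 after EIH and -0.64 ± 0.40 after AMPH at 3 h, and Psmb9 to Psmb6 was -0.72 ± 0.54 and -0.50 ± 0.48. These were less even: EIH replicate 1 read 0.04 and 0.08 in these balances. In choroid plexus at 3 h the means of the 3 balances lay between -0.23 and 0.02, with SDs of 0.16 to 0.40. These values describe the arrays and were not tested.

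**Figure D4:**
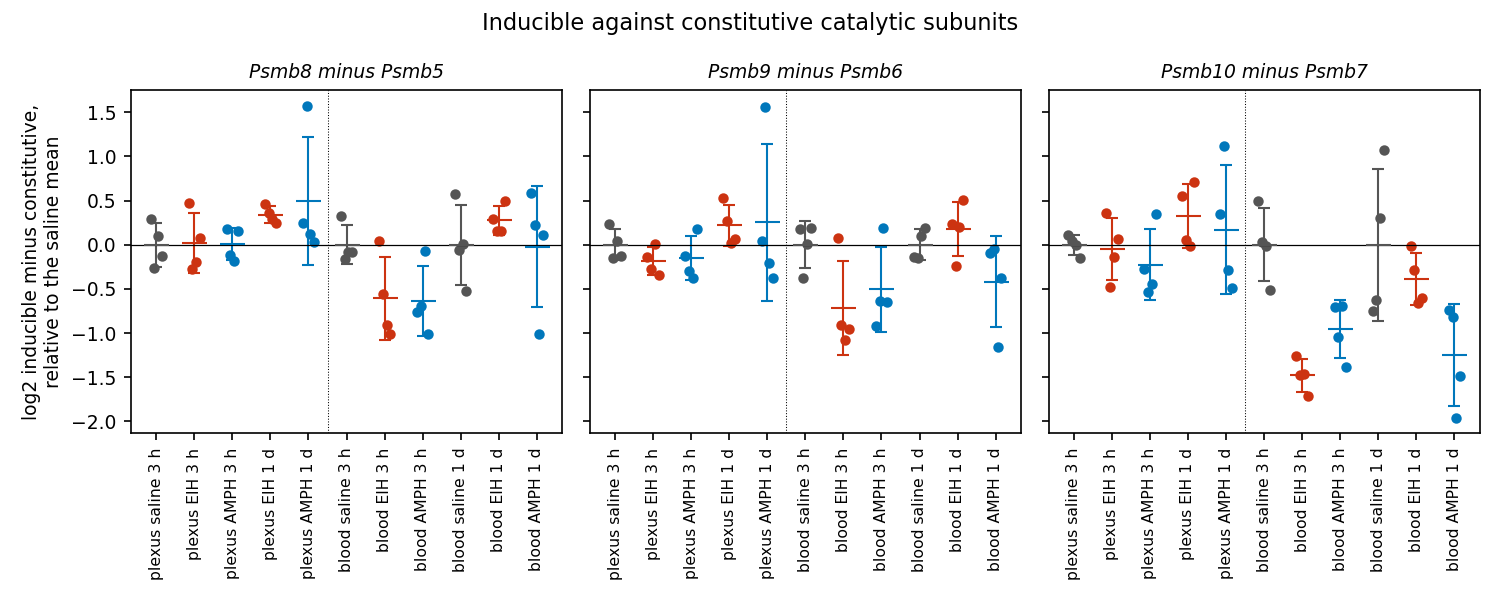
Log2 signal of each inducible catalytic subunit minus that of the constitutive subunit it replaces (y axis), relative to the mean of the saline arrays of the tissue and time (choroid plexus at 1 day relative to saline at 3 h), on every array of the 11 groups; lines are means and bars 1 SD (n = 4). In blood the 4 EIH arrays of 3 h lie between -1.71 and -1.26 for Psmb10 minus Psmb7, below all saline arrays.

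Genes around the proteasome were given as lists. Of 7 measured partners and regulators, 3 were called higher in blood at 3 h after both exposures, which share the saline arrays, and 0 lower. Among all genes 5.63% were called higher and 7.00% lower after EIH, and 5.08% and 3.60% after AMPH. Zfand2a, the heat-induced adaptor AIRAP that binds the regulatory particle, read 6.65, 7.20, 6.56 and 5.57 under saline, 9.67, 12.73, 13.28 and 12.65 after EIH and 10.65, 12.41, 8.21 and 11.85 after AMPH. Every exposed array lay above every saline array, with rises of 5.59 ± 0.78 (limma, adjusted p = 0.000183) and 4.29 ± 0.78 (adjusted p = 0.00315). Nfe2l2, the oxidative stress factor NRF2, rose by 1.59 ± 0.22 and 1.55 ± 0.22 (adjusted p = 0.000153 and 0.000427), and the ubiquitin-binding Zfand5 rose by 0.86 ± 0.19 and 0.80 ± 0.19 (adjusted p = 0.0043 and 0.0115). In choroid plexus 0 of these 7 were called, though 4 after EIH and 3 after AMPH were higher at an unadjusted p under 0.05. Among all genes 7.78% and 8.89% were. The difference between tissues was called for Zfand2a (-4.61 ± 0.89 for EIH and -4.02 ± 0.89 for AMPH, choroid plexus minus blood) and for Nfe2l2 (-1.24 ± 0.25 and -1.16 ± 0.25).

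In the list of ubiquitin genes, activating enzymes and shuttle factors 1 of 10 was called in blood after EIH, the ubiquitin ligase gene Stub1 (-0.71 ± 0.18, limma adjusted p = 0.0137), and 0 after AMPH. Of 11 measured MHC class I presentation genes, 1 was called after EIH, the peptide-trimming Erap1 (-0.88 ± 0.25, adjusted p = 0.0227), and 0 after AMPH. Among all genes 7.00% were called lower after EIH. Tap1, between Psmb8 and Psmb9, gave -0.41 ± 0.55 after EIH and -0.33 ± 0.55 after AMPH. It read 10.25, 8.38, 8.46 and 8.39 on the EIH arrays and 9.04, 8.67, 9.70 and 8.38 on the AMPH arrays, so its highest array in each group was the one on which Psmb8 and Psmb9 were highest.

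The interferon-response genes called in blood at 3 h went both ways after EIH, and those called after AMPH were all lower. After EIH, of 14 measured genes, the transcription factor gene Irf1 (0.85 ± 0.25, limma adjusted p = 0.0279) and Oasl (1.41 ± 0.39, adjusted p = 0.0219) rose, while the antiviral genes Mx1 (-2.36 ± 0.51, adjusted p = 0.00375) and Rsad2 (-1.82 ± 0.28, adjusted p = 0.000255) fell. After AMPH Mx1, Mx2 and Rsad2 fell, by 2.09, 2.85 and 1.70 on the log2 scale (adjusted p = 0.0142, 0.0171 and 0.00148; Mx2 with n = 3 and 4), and 0 rose. Among all genes in blood 5.63% were called higher and 7.00% lower after EIH, and 5.08% and 3.60% after AMPH. In choroid plexus 0 of the 14 were called after either exposure. At an unadjusted p under 0.05, 1 was higher and 1 lower after EIH (7.78% and 5.16% of all genes). After AMPH 2 were higher and 1 lower (8.89% and 6.08%).

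The promoter matches shown above can be read beside these values. Of the 6 members with a match to the interferon-stimulated core, 5 were among the 9 called lower in blood after EIH at 3 h. Among all genes 7.00% were called lower. The 5 were Psma4, Psmb3, Psmb8, Psmb10 and Psme2, and Psmd7 gave 0.15 ± 0.27. The calls of Psma4, Psmb3 and Psmb8 were lost in 10, 5 and 12 of 17 alternatives. How many of all array genes with a match were called was not counted. Of the 4 other called genes, Psmd5, Psme1 and Psmg2 had no such match in the window. The site used for Psmd5 lay 3595 bases inside the annotated gene, and the Psme1 window ended on the opening letters of the pattern. A match outside these windows could not be read. Psma7 had no promoter to search. Under saline the same 6 genes were divided, with Psmb8 and Psmb10 higher in blood, Psma4, Psmb3 and Psmd7 higher in choroid plexus and Psme2 at 0.06. This sets letters beside signals and was not tested.

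The spread between replicates was small for most members. The median SD of a member was 0.11 in choroid plexus under saline at 3 h and 0.13 in blood, against 0.31 and 0.39 over all genes, without matching for signal. In the remaining groups the member median lay between 0.10 and 0.28.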

How the data were processed

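The authors deposited a table of signal intensity per probe for 44 Agilent 1-colour arrays, already normalized. Which scanner software, background correction and normalization were used is not given in the sources used here. Blank cells made up 3.05% of choroid plexus and 8.57% of blood values and were left out. Intensities were set to at least 1 and taken to log2, and probes were named through the platform's annotation (12926 of 14055 with a symbol). Each tissue was fitted across all genes with limma 3.58.1 in R 4.3.3 (lmFit and eBayes, at least 2 values per group), with Benjamini-Hochberg adjustment over all tested genes. Contrasts between tissues were fitted over the arrays of both. The fitting step was tried on simulated data for EIH at 3 h in each tissue and for the saline comparison between tissues. That simulation had no blanks and no shared rats, and did not cover the differences between effects. Tables and plots used Python 3.11.15, pandas 2.3.3 and matplotlib 3.10.9.

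The members, gene lists, motifs and tests were chosen with earlier results of these data known. Genes named were the catalytic and activator genes, the 4 largest rises and falls among called members (or the smallest p), and the lowest or highest of a role. Psma4 and Psmd7, and other members named with a count of 5 or fewer, were added after their values were seen. A p-value here covers only the spread among the pools or rats measured, which may be partly technical. Alternatives covered normalization, a filter on dim genes, the variance prior, array weights, arrays fitted, probe choice, shared rats and single arrays left out.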

Additional observations from a re-analysis of the deposited data

Results flagged for a closer look

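In 17 of 252 groups of 4 arrays, 1 array lay far from the other 3 by Dixon's ratio. Some of the genes tested were taken because an array lay more than 1 log2 from the median of the others in its group. The count can therefore not be set against the 1 group in 20 of chance. The widest gaps were downward. Psma3 in choroid plexus EIH at 1 day replicate 2 read 8.22 (others 11.52 to 11.67), and Psma2 in blood AMPH at 1 day replicate 4 read 7.52 (others 10.09 to 10.36). On blood AMPH at 3 h replicate 1, the lid gene Psmd3 read 6.37 (others 8.90 to 9.29) and Psmd13 read 7.44 (others 9.44 to 9.69). On the choroid plexus pool that stood apart, AMPH at 1 day replicate 2, Psmd13 read 8.83 (others 9.97 to 10.17) and Psme4 read 9.56 (others 9.99 to 10.01).

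The remaining gaps were small. On choroid plexus saline at 3 h replicate 1, Psmb7 read 11.07 (others 10.93 to 10.95) and Psmb9 read 11.49 (others 11.18 to 11.21), and on replicate 2 Psmb1 read 13.20 (others 12.91 to 12.92). Psmb7 in choroid plexus AMPH at 3 h replicate 4 read 10.86 (others 10.89 to 10.90). On blood EIH at 1 day replicate 1, Psmb10 read 13.48 (others 13.09 to 13.14) and Psme1 read 12.48 (others 12.18 to 12.22). On blood AMPH at 3 h replicate 4, Psmb7 read 11.02 (others 10.55 to 10.59) and Psma2 read 10.72 (others 10.42 to 10.45). Psmb6 in blood EIH at 3 h replicate 4 read 10.66 (others 11.20 to 11.29), Psma3 in blood saline at 3 h replicate 4 read 10.29 (others 10.77 to 10.85) and Psmd7 in blood AMPH at 1 day replicate 3 read 10.70 (others 10.32 to 10.33).

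Effects that differed between tissues or times by the limma test of the difference were those given above. The EIH effect in choroid plexus exceeded that in blood by 1.24 for Psmd5 and 0.87 for Psme1, and the AMPH effect by 0.88 for Psme1. In blood the EIH effect at 3 h minus that at 1 day was -0.72 for Psma4, -0.86 for Psma7, -0.91 for Psmb10, -1.71 for Psmd5, -0.89 for Psme1 and -2.52 for Psmg2.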

How the results depend on the processing

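No member changed direction, under the alternatives run, in a comparison in which it was called. Estimates near 0 that were not called did cross it, such as Psmb8 in choroid plexus after EIH at 3 h (-0.11 to 0.18) and Psmb6 in blood after EIH at 3 h (-0.11 to 0.13). With array weights the members called numbered 5 in choroid plexus after EIH at 3 h and 3 after AMPH, 14 in blood after EIH at 3 h and 6 after AMPH, 6 and 2 for the difference between tissues in the EIH and AMPH effects, and 11 for the EIH effect at 3 h against 1 day, where the weights called 14.7%, 12.4% and 17.1% of all genes for the last 3. Fitting the compared groups alone gave 1 in blood after AMPH at 3 h and 5 for the EIH difference between tissues, which was 1 without pools that share a rat number. In blood after AMPH at 1 day the count was 1 without the dimmest 25% of genes and 1 with an intensity trend and robust prior. Leaving out 1 array at a time gave 0 to 1 members in choroid plexus after AMPH at 3 h, 4 to 9 in blood after EIH at 3 h, 1 to 4 after AMPH at 3 h, 0 to 1 after AMPH at 1 day, 1 to 4 for the EIH difference between tissues and 1 to 8 for the EIH difference between times. The cause of these shifts was not tested.

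The labels give no replicate numbers, so numbers follow accession order and pair nothing. The labels' rat numbers tie blood arrays to choroid plexus pools, and with a random replicate block for these shared rats 36 members were called between tissues, 4 for the EIH difference between tissues and 1 for that of AMPH. Leaving out 2 arrays that stand apart (choroid plexus AMPH at 1 day replicate 2, blood saline at 1 day replicate 4) and fitting every probe were chosen after seeing the data. With 4 arrays a group, changes smaller than the intervals given could not be detected.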
